A study of Mus musculus with 6 samples.

Results

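The genes described here are 10 brakes and sensors of the cell cycle: the CDK inhibitors Cdkn1a, Cdkn1b, Cdkn2a, Cdkn2b, Cdkn2c and Cdkn2d, the tumour suppressor gene Trp53, its antagonist Mdm2, and the p53 targets Ccng1 and Sesn2. The members were chosen by name for their shared pathway, with the signals of the same CNOT3KO and WT arrays already known, so their differences are given as a description and carry no p-value. Every probe set whose annotation names a member and no other gene was taken, which gave 16 probe sets of 45037 on the array. They cover 9 of the 10 genes, out of 18193 genes with such a probe set. Trp53 had none and was not analysed here.

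The study profiled whole epididymal white fat of 6 C57BL/6 mice aged 8 weeks, hybridising 500 ng of total RNA of each mouse to its own Affymetrix array. In the 3 CNOT3KO mice a Cre recombinase driven by the adiponectin promoter had removed Cnot3, which encodes a core subunit of CCR4-NOT, the complex that shortens mRNA poly(A) tails. That promoter acts in adipocytes, so the other cells of the fat pad should keep the gene. Deletion by cell type was not measured here. The other 3 mice were wild type (WT), and whether they carried a floxed allele is not stated in the labels. All values below are the authors' MAS5 signals, a linear brightness per probe set, and signals of different probe sets are not comparable with each other. The summed signals of marker lists, given per mouse, are thus weighted towards the genes with the brightest probe sets.

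CDK inhibitors bind cyclin-dependent kinases and keep the retinoblastoma proteins active, which holds cells before S phase. The CIP/KIP family (Cdkn1a encoding p21, Cdkn1b encoding p27) binds several cyclin-CDK pairs, while the INK4 family (Cdkn2a to Cdkn2d) binds CDK4 and CDK6. p53 is a transcription factor stabilised by DNA damage and other stress; it switches on Cdkn1a, Ccng1 and Sesn2, and also Mdm2, whose product marks p53 for destruction. Lasting expression of p21 and p16 (from Cdkn2a) is a usual mark of senescence, a durable exit from the cell cycle that comes with secretion of cytokines and proteases.

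Each array was scaled before deposit, with medians between 82.1 and 92.9. Cnot3 itself had 194, 229 and 179 in CNOT3KO fat, against 305, 293 and 305 in WT fat, by its brighter probe set (log2 difference -0.54, limma adjusted p = 0.0131), and its other probe set was not called. Over all 12769 genes tested, 2959 were higher and 2156 lower in CNOT3KO, and centring each array on its median tested gene turned the split into 2318 higher and 2800 lower. Adipocyte markers were present in both groups: of 11 tested, 0 were higher, Lep and Cidec were lower and 9 were not called, with a summed signal of 154872 to 189649 in CNOT3KO and 171468 to 215776 in WT. RNA of a whole tissue cannot tell fewer cells of a type from less RNA per cell.

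Among the members, Cdkn1a stood far apart: it was 11.97-fold higher in CNOT3KO fat by one probe set and 10.9-fold by the other. Ccng1 was also higher, Cdkn1b was lower, and Cdkn2b, Cdkn2c, Cdkn2d, Mdm2 and Sesn2 were not called. Of 8 members bright enough to be tested, 2 were called higher, against 23.2% of all genes tested, and 1 lower, against 16.9%. The 3 called genes were also the 3 whose groups did not overlap, a pattern seen in 51.7% of all genes tested. The median absolute log2 difference of the 8 members was 0.22, against 0.34 over all genes tested. All 8 lay above the signal filter in both groups, and Cdkn2a, higher in each CNOT3KO mouse than in any WT mouse, lay below it.

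**Figure D1:**
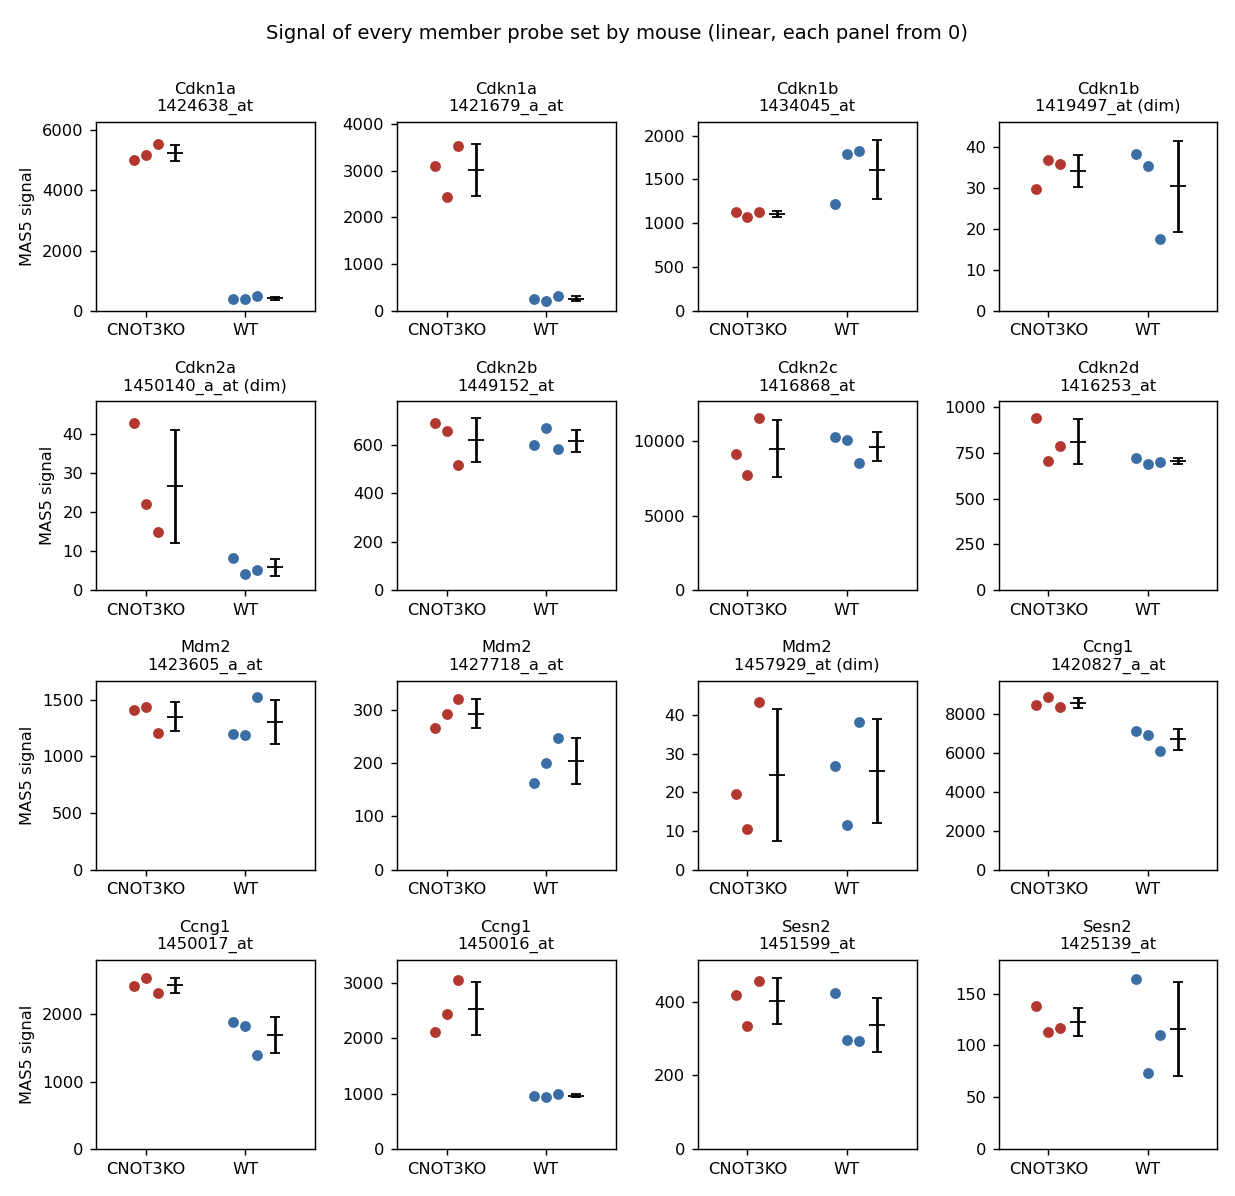
MAS5 signal (linear, each vertical axis from 0) of all 16 member probe sets, with 1 point per mouse, CNOT3KO left and WT right; the bar beside each group is the mean and SD of 3 mice. The 6 probe sets above the filter with every CNOT3KO mouse above every WT mouse belong to Cdkn1a, Mdm2 and Ccng1, and the one with every CNOT3KO mouse below belongs to Cdkn1b.

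Cdkn1a encodes p21, the CDK inhibitor through which p53 halts division. Its brighter probe set, 1424638_at, had 5026, 5181 and 5555 in CNOT3KO fat, against 377, 406 and 477 in WT fat. The lowest knockout mouse was thus more than 10 times the highest WT mouse, and the groups averaged 5254 ± 272 and 420.0 ± 51.7 (SD, n = 3 each). On the log2(signal + offset) scale the difference was 3.58 (SE 0.12), an 11.97-fold change. The second probe set, 1421679_a_at, had 3113, 2430 and 3531 in CNOT3KO fat and 244, 212 and 317 in WT fat, and its log2 difference of 3.44 (SE 0.18) was within 1 SE of the first. Ranked by log2 difference, Cdkn1a was gene 15 of the 12769 tested. Its difference ranged from 3.40 to 3.67 over all the processing alternatives and with any 1 mouse left out.

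The RefSeq promoter windows of the members (250 bases before to 50 after a transcription start, build GRCm38.p6) were searched for the p53 half-site consensus, a motif of 10 bases that reads the same on both strands. Cdkn1a has a window at each of 2 starts. The upstream one holds 2 exact half-sites, 1 of them inside a pair of adjacent half-sites with 1 mismatch in 20 bases, 51 to 32 bases before the start, while the downstream one holds 0. Ccng1 holds such a pair 195 to 176 bases before its start. Mdm2 and Cdkn2d hold 1 half-site each by itself, and sequence outside these windows was not searched. Printed below, with the calls known, is 1 motif for each of the 4 measured members whose windows hold a half-site. Cdkn1a and Ccng1, with the pairs, were called higher, and Mdm2 and Cdkn2d were not. That split depended on the setting. Mdm2 probe set 1427718_a_at, tested singly, was called higher, and so was Cdkn2d with array weights. Ccng1 lost its call under 5 of the 20 alternatives. Whether the motifs bear on the calls was not tested. Capitals in the whole windows mark the pair.
Cdkn1a pair: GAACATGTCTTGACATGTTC
Ccng1 pair: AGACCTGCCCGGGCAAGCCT
Mdm2 half-site: GAACTTGCCT
Cdkn2d half-site: GGGCTTGCCT
Cdkn1a upstream window, chr17:29090729-29091028, plus strand: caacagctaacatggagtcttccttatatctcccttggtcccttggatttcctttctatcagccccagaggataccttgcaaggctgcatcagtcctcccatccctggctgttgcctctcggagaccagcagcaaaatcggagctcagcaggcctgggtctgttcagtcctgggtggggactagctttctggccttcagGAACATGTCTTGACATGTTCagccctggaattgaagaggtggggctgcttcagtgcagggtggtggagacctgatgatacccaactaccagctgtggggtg
Ccng1 window, chr11:40755237-40755536, minus strand: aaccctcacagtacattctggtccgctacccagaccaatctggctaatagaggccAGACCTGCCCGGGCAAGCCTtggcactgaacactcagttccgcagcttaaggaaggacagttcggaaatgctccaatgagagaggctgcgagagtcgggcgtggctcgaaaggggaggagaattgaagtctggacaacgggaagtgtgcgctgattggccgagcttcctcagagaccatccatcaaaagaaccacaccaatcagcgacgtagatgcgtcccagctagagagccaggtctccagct

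A half-site occurred in 4 of 12 windows of the 9 measured members, against 8.36% of all 32851 windows, and a pair with at most 1 mismatch in 2 of the 12, against 0.0883% of all windows. The mismatch allowed was set after the Cdkn1a window had been read, and a match is a run of letters, not a measured binding site. Some members were listed as known p53 targets, so these shares cannot tell whether p53 sites bear on the calls. In all, 29 genes have a window with such a pair, and 6 of them besides Cdkn1a and Ccng1 were tested. Gtse1, which binds p53 in G2 phase, the p53 target Rps27l and the lectin gene Clec4b1 were called higher in CNOT3KO, the B cell scaffold gene Bank1 lower, and Mthfd1 and Calhm2 were not called. Over all genes tested 23.2% were called higher and 16.9% lower. Gtse1 had 189, 191 and 277 in CNOT3KO fat, against 72.7, 75.1 and 13.3 in WT fat, where its mean of 53.7 lay near the filter of 51.6. Rps27l had 11359, 11462 and 11513 in CNOT3KO fat, against 8701, 9434 and 9741 in WT fat. The groups did not overlap in Gtse1, Rps27l, Clec4b1, Bank1 and Mthfd1, as in 51.7% of all genes tested.

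Ccng1 encodes cyclin G1, a p53 target that binds a subunit of the phosphatase PP2A. All of its 3 probe sets were higher in every CNOT3KO mouse than in any WT mouse, by unequal amounts. The brightest, 1420827_a_at, had 8505, 8884 and 8391 in CNOT3KO fat, against 7141, 6919 and 6094 in WT fat (log2 difference 0.36, SE 0.10). Probe set 1450017_at gave 2423, 2540.3 and 2318, against 1879, 1824 and 1389.9 (0.52, SE 0.13). The third, 1450016_at, dimmest in WT, gave 2118, 2445 and 3060.2, against 961, 937 and 1001, a log2 difference of 1.36 (SE 0.14) that exceeds those of the other probe sets by several standard errors. The positions of these probe sets in the transcript were not analysed here, so the gene's fold change depends on the probe set. The gene's call, made with the brightest probe set, was lost without CNOT3KO mouse 1 (log2 0.36) or 2 (0.33) or WT mouse 3 (0.29), and under centring on the median gene (0.26) or on ribosomal genes (0.36).

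Mdm2, the ubiquitin ligase that p53 induces and that removes p53, gave different pictures by probe set. Its brightest, 1423605_a_at, had 1411, 1436 and 1208 in CNOT3KO fat, against 1197, 1186 and 1526 in WT fat, with overlapping groups (log2 difference 0.06, SE 0.13). Probe set 1427718_a_at had 265, 293 and 321 in CNOT3KO fat, against 163, 201 and 248 in WT fat, which do not overlap (0.49, SE 0.17). The third probe set lay below the filter, between 10.4 and 43.5 over the 6 mice. Sesn2, a stress-induced inhibitor of mTORC1 signalling, had 418, 334 and 456 in CNOT3KO fat, against 423, 295 and 293 in WT fat. Its difference of 0.25 (SE 0.18) was not called, and its dimmer probe set gave 0.12 (SE 0.24) with overlapping groups.

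**Figure D2:**
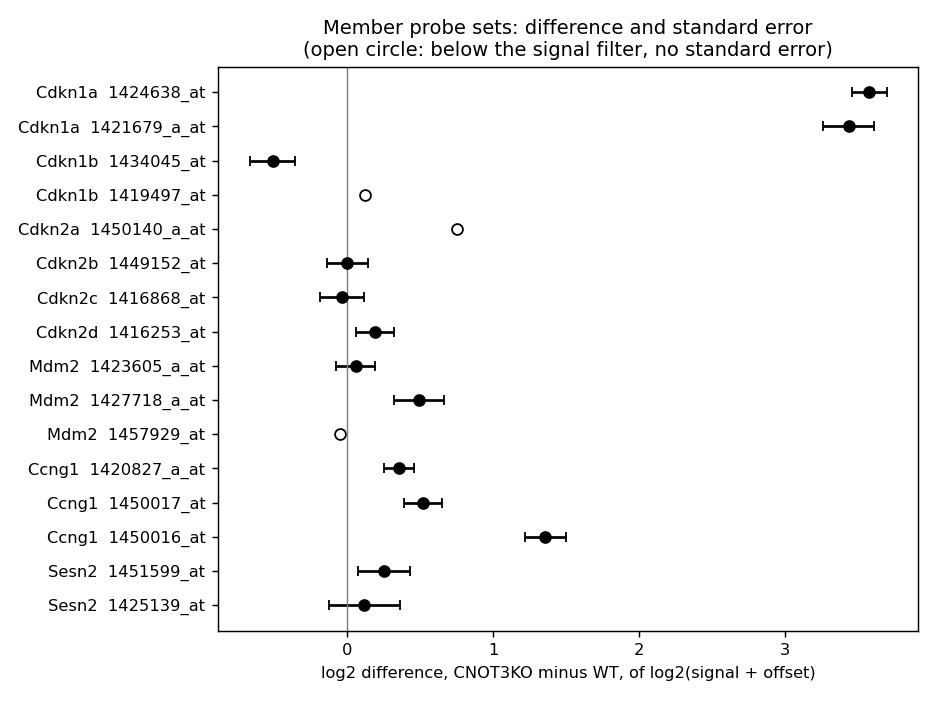
Log2 difference, CNOT3KO minus WT, of log2(signal + offset) for the 16 member probe sets, with the standard error from the fit of every probe set singly; open circles are the 3 probe sets below the filter. The 2 Cdkn1a probe sets lie at 3.58 and 3.44, the next highest, Ccng1 1450016_at, at 1.36, and Cdkn1b 1434045_at at -0.51.

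Cdkn1b encodes p27, the CIP/KIP inhibitor typical of resting and differentiated cells. It had 1122, 1069.9 and 1126 in CNOT3KO fat, against 1220.5, 1791 and 1827 in WT fat. The groups did not overlap, but WT mouse 1 lay close to the knockout mice, and the mean was 68.6% of WT (log2 difference -0.51, SE 0.16). This call was lost without CNOT3KO mouse 1 (-0.52) or 2 (-0.49) or WT mouse 2 (-0.43) or 3 (-0.41), and with the mean of both probe sets (-0.20), of which the other was dim in all mice (17.7 to 38.3). The pair of CIP/KIP genes thus differed in opposite directions in the same tissue. The third CIP/KIP gene, Cdkn1c, encoding p57, is no member and had 299, 282 and 228 in CNOT3KO fat, against 570.1, 550.4 and 1043 in WT fat, and it was called lower (log2 -1.29, SE 0.23) at a limma adjusted p of 0.00186.

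None of the 3 INK4 genes bright enough to be tested was called. Cdkn2c, encoding p18, had 9150.2, 7736 and 11530 in CNOT3KO fat and 10272, 10099 and 8509 in WT fat, and Cdkn2b, encoding p15, had 687, 657 and 516 in CNOT3KO fat and 599.8, 668 and 581 in WT fat. Their log2 differences were -0.04 (SE 0.15) and 0.00011 (SE 0.14), and in both genes the groups overlapped. Cdkn2d, encoding p19 of the INK4 family, had 942, 703 and 786 in CNOT3KO fat, against 723, 691 and 699 in WT fat (0.19, SE 0.13), and it was called only with array weights (0.34). Cdkn2a, which encodes p16 and ARF, was too dim to be tested, with 42.7, 22.0 and 14.9 in CNOT3KO fat, against 8.33, 4.07 and 5.05 in WT fat. Every knockout mouse exceeded every WT mouse, but all 6 values lay below the filter of 51.6, where MAS5 signals are noisy, and no fold change is given for it. With no filter Cdkn2a was called higher. Cdkn2b and Cdkn2a are neighbours on chromosome 4.

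Over the 13 member probe sets above the filter, tested singly, 6 were called higher, 1 lower and 6 were not called, against 35.8% of all such probe sets called in either direction. The 6 higher ones were both of Cdkn1a, all 3 of Ccng1 and 1 of Mdm2.

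The other genes around the CDK inhibitors moved in both directions. Of 5 tested CDK inhibitor and pocket protein genes outside the members, 1 was higher, 3 were lower and Rbl1 was not called (median log2 difference -0.44, against 0.02 over all genes tested). Among all genes tested 23.2% were called higher and 16.9% lower. Rbl2, encoding the pocket protein p130 of resting cells, had 504, 486 and 432 in CNOT3KO fat, against 637, 845 and 749 in WT fat (log2 -0.62, limma adjusted p = 0.00546). Rb1, the retinoblastoma gene, fell to 0.739 of WT, a call lost when its probe sets were averaged (log2 -0.47). Cdkn3, a phosphatase of CDKs that is expressed in dividing cells, rose 2.76-fold.

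Part of the cyclin, CDK and proliferation genes were also higher in CNOT3KO fat. Of 18 tested cyclin, CDK and activator genes 8 rose, 1 fell (Ccnd3) and 9 were not called, with a median log2 difference of 0.39. Over all genes tested 23.2% were called higher and 16.9% lower. Of the 8, Ccnf lay below the filter in WT and lost its call with CNOT3KO mouse 1 or 2 left out, and Cdk7 lost its call when its probe sets were averaged. Ccnd3 also lost its call under that averaging, with array weights and without CNOT3KO mouse 2 or WT mouse 2. Cdk1, the kinase of mitosis, averaged 859 ± 68.7 in CNOT3KO fat and 105 ± 29.3 in WT fat (SD, n = 3 each), and Ccnb2, Ccne1 and Cdk6 rose 3.04-fold, 2.69-fold and 2.48-fold. Cdk2 and Cdk4, main partners of the inhibitors above, were not called (0.04 and 0.10). Of 22 tested E2F and proliferation genes 13 rose and 0 fell (median 0.74), among them Mki67, the marker of cycling cells, with 597, 828 and 563 in CNOT3KO fat, against 138, 72.7 and 87.5 in WT fat. Top2a rose 3.39-fold. Tk1 also rose, by 2.58-fold to 5.26-fold depending on the offset. Aurkb and Bub1 were above the filter in CNOT3KO only, so passing it favoured a difference; Aurkb had 192, 230 and 227 in CNOT3KO fat, against 31.8, 53.9 and 50.1 in WT fat. E2f1 and Mcm4 lost their calls under 4 alternatives each, and the other 11 kept theirs under every alternative.

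Genes of the p53 family and regulators of p53 went both ways. Of 17 tested, 3 rose (Chek1, Trp53bp1 and Ppm1d), 6 fell (Mdm4, Hipk2, Sirt1, Bmi1, Cbx7 and Trp63) and 8 were not called. Their median log2 difference was -0.25, and over all genes tested 23.2% were called higher and 16.9% lower. Cbx7, a Polycomb protein that represses the Cdkn2a locus, had 371, 383 and 301 in CNOT3KO fat, against 546, 1044 and 875 in WT fat (log2 -1.13, limma adjusted p = 0.00274). Mdm4, the partner of Mdm2 in restraining p53, fell to 0.628 of WT and lost its call when its probe sets were averaged. With that averaging, Trp53bp1 had a log2 difference of 0.04, Chek1 of 0.41 and Trp63 of -0.46, and none of these was called. Ppm1d also lost its call under that averaging and without CNOT3KO mouse 1 or WT mouse 1 or 2, so none of the 3 rises held under every alternative. Of the 6 that fell, Cbx7 and Hipk2 kept their calls under every alternative. Sirt1 lost its call without WT mouse 2, and Bmi1, whose groups overlap, under 8 of the 20 alternatives.

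Of 27 tested p53 target genes outside the members, 9 rose, 3 fell (Fas, Cd82 and Rrm2b) and 15 were not called, with a median log2 difference of 0.19. The shares over all genes tested were 23.2% higher and 16.9% lower. The TNF receptor family gene Eda2r rose 2.33-fold and the adenylate kinase gene Ak1 2.19-fold, while the rise of Gtse1 lay between 2.19-fold and 5.02-fold depending on the offset. The death receptor gene Tnfrsf10b had 93.3, 68.4 and 111 in CNOT3KO fat, against 36.0, 23.9 and 3.78 in WT fat. Its WT mean lay below the filter, so passing it favoured a difference, and its fold ran from 1.64 to 5.50 with the offset. Bbc3, the BH3-only gene PUMA, rose 1.86-fold and lost its call without CNOT3KO mouse 1. In all, 5 of the 9 rises and 1 of the 3 falls, that of Rrm2b, held under every alternative. Phlda3, Zmat3 and Tigar were not called (log2 -0.11, 0.15 and 0.05). 

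**Figure D3:**
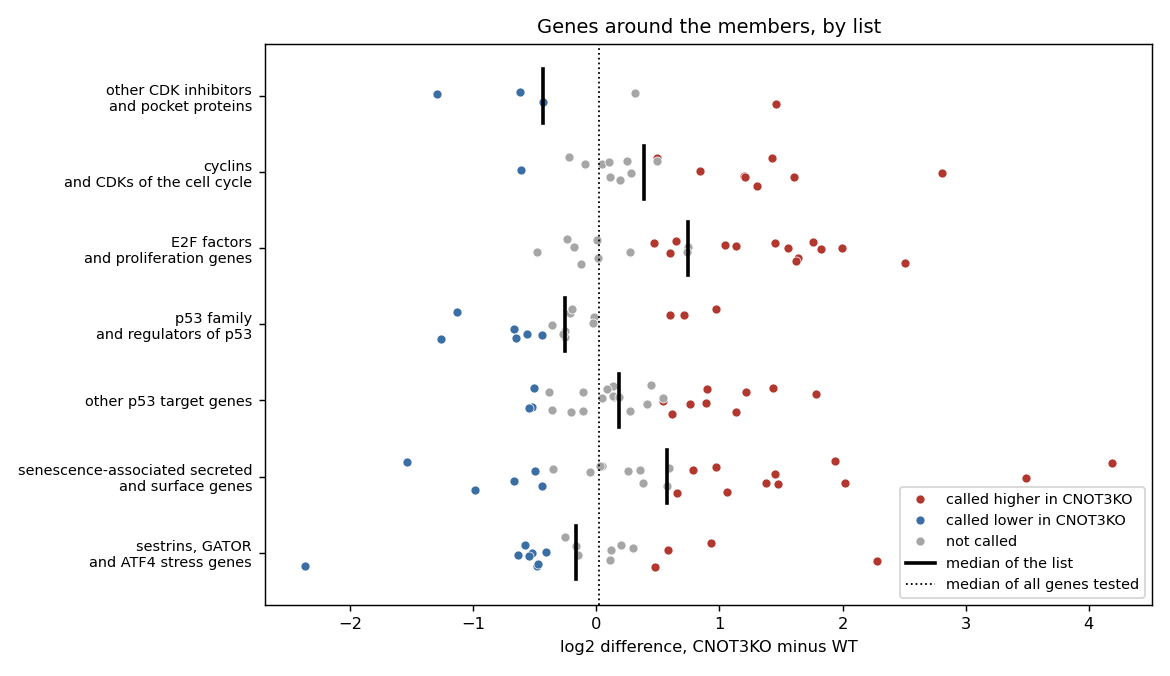
Log2 difference, CNOT3KO minus WT, of each tested gene in 7 lists around the members (1 point per gene; red called higher, blue called lower, grey not called), with a thick line at the list's median and a dotted line at the median of all genes tested. List medians run from -0.44 for the CDK inhibitors and pocket proteins outside the members to 0.74 for the E2F and proliferation genes.

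Genes used to describe senescent cells were mixed. Of 25 tested genes of secreted and surface products, 11 rose, 5 fell and 9 were not called, with a median log2 difference of 0.57. The shares over all genes tested were 23.2% higher and 16.9% lower. Mmp12, the macrophage elastase, rose 18.2-fold, the protease inhibitor gene Timp1 11.3-fold, and the chemokine genes Ccl8 and Ccl2 4.05-fold and 3.84-fold. All 5 genes that fell encode insulin-like growth factor binding proteins, Igfbp2, Igfbp3, Igfbp4, Igfbp5 and Igfbp7. Igfbp2 lost its call under 7 alternatives, and the other 4 kept theirs under every alternative. Igfbp5 had 1829, 2495 and 1431 in CNOT3KO fat, against 4524, 5632 and 6430.1 in WT fat. Glb1, the lysosomal galactosidase behind the usual senescence stain, rose 1.72-fold; Lmnb1, encoding the lamin that senescent cells lose, had 310.2 ± 38.1 in CNOT3KO and 303 ± 29.9 in WT (SD, n = 3 each) and was not called. Il6 and Il1a were too dim to be tested, and Cxcl2 and Mmp13, among the 11 that rose, were above the filter in CNOT3KO only.

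Sesn2 also belongs to the stress genes that ATF4 controls, and those did not move as one. Of 19 tested sestrin, GATOR and ATF4 stress genes 4 rose (Atf3, Chac1, Psat1 and Nprl2), 8 fell and 7 were not called. The 8 that fell were Atf4 itself, Asns, Ddit3, Nupr1, Nfe2l2, Phgdh, Castor1 and Sesn3. Atf4 averaged 2750 in CNOT3KO fat and 3881 in WT fat (log2 -0.47), a call lost without CNOT3KO mouse 1 or WT mouse 2 or 3. The median log2 difference of the 19 genes was -0.16, and over all genes tested 23.2% were called higher and 16.9% lower. Chac1, a glutathione-degrading enzyme gene, rose 1.91-fold and Atf3, whose product is a bZIP factor induced by stress, 4.86-fold. Phgdh, the first enzyme of serine synthesis, had 2049.5, 4808 and 1802 in CNOT3KO fat, against 11231, 14769 and 14944 in WT fat, and Castor1, an arginine sensor upstream of mTORC1, fell to 0.644 of WT. Under every alternative 3 of the 4 rises and 3 of the 8 falls held.

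Markers of other cell types differed between the groups alongside these genes, and their part in the results above was not tested. The shares called over all genes tested were 23.2% higher and 16.9% lower. Of 18 macrophage markers 14 were higher, 1 (Mertk) was lower and 3 were not called, and their summed signal was 63287 to 87159 in CNOT3KO fat, against 32043 to 41554 in WT fat. Endothelial markers were lower in 9 of 10 cases, with a summed signal of 4746 to 5917 in CNOT3KO, against 11662 to 12548 in WT. Among mast cell markers Cma1, Cpa3 and Mcpt4 were higher, Kit was lower, and Tpsb2 and Ms4a2 lay below the filter (sum 822 to 1628 in CNOT3KO, against 612 to 724 in WT). Of 11 T and NK cell markers measured, Il7r and Klrd1 were higher and 5, among them Cd3e, Cd4 and Cd8b1, lay below the filter. Their summed signal was 1920.1 to 2637 in CNOT3KO, against 925 to 1164 in WT, and Il7r carried that difference: without it the sums overlapped, at 826 to 1162 in CNOT3KO and 774 to 940.2 in WT. Cd79b and Ms4a1 of B cells were lower and Cd79a lay below the filter (sum 213 to 282 in CNOT3KO, against 322 to 654 in WT). The CNOT3KO means of Cd79b, Ms4a1 and the lower endothelial marker Tie1 lay below the filter, as did the WT mean of Mcpt4. Passing the filter thus favoured a difference in these genes. Neutrophil markers gave no call, with S100a9, Cxcr2 and Elane below the filter (sum 518 to 552 in CNOT3KO, against 519.8 to 738 in WT). Of 9 fibroblast and progenitor markers 4 were higher and 2 lower (sum 62661 to 74663 in CNOT3KO, against 54005 to 65365 in WT). Of 7 smooth muscle and pericyte markers 2 were higher and 4 lower (sum 8319 to 10139.7 in CNOT3KO, against 12599 to 19135 in WT). Rgs5 carried the gap between these sums, which overlap without it. It had 3528, 3874 and 3572 in CNOT3KO fat, against 7160, 9129 and 11106 in WT fat. Mesothelial markers were lower in 4 of 7 cases (sum 2415 to 3589.97 in CNOT3KO, against 4246 to 5285 in WT). Of 7 markers of the neighbouring epididymis epithelium, 6 lay below the filter and Rnase10 was called higher (sum 256 to 285 in CNOT3KO, against 226 to 252 in WT). Of these marker calls, 13 of the 14 higher macrophage markers and 8 of the 9 lower endothelial markers held under every alternative. The calls of Mertk, Cd79b, Ms4a1, Mcpt4, Kit and both higher smooth muscle markers did not, nor did those of 2 of 4 higher and both lower fibroblast markers, 2 of 4 lower smooth muscle markers and Upk3b among the mesothelial ones.

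The 5 genes outside the members whose signals over the 6 arrays lay nearest to Cdkn1a, by the root mean square distance of log2 values centred on the WT mean, were Adam8, Timp1, Rgs1, 9030619P08Rik and Saa1. Their distances from Cdkn1a were 0.19, 0.20, 0.30, 0.32 and 0.36 log2 units. Adam8, a metalloprotease gene, had 2466, 3199 and 2459 in CNOT3KO fat, against 181, 177 and 192 in WT fat. Timp1 had 1433, 1428 and 1694 in CNOT3KO fat, against 129.6, 115 and 99.0 in WT fat, while Rgs1, a regulator of G protein signalling, had 1208, 1543 and 936, against 62.4, 50.7 and 92.3. Saa1 had 691, 522 and 933 in CNOT3KO fat, against 25.3, 59.3 and 26.2 in WT fat. Its WT mean of 37.0 lay below the filter, so passing it favoured a difference. The distance is set mostly by the size of the group difference, and with 6 arrays in 2 groups it says little about mouse-to-mouse variation.

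**Figure D4:**
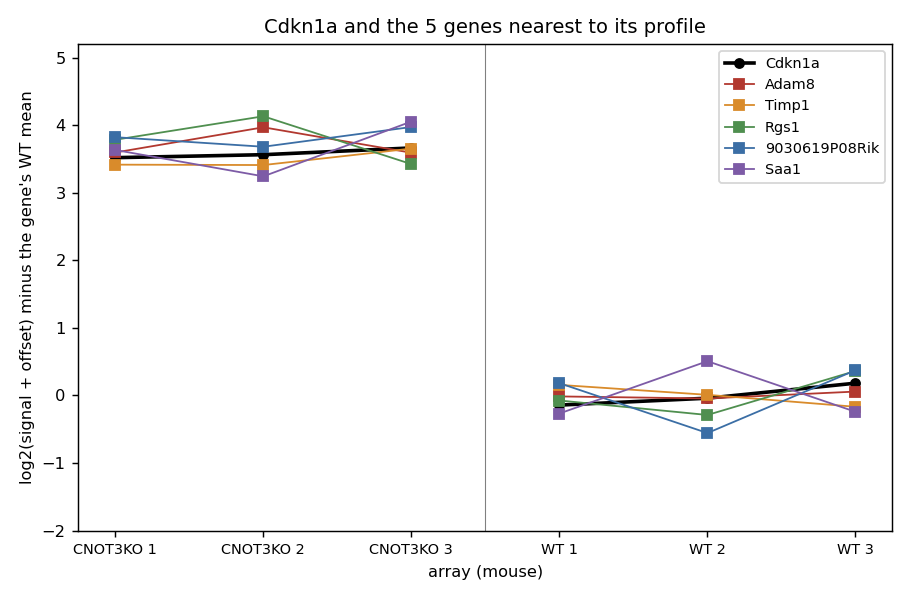
Log2(signal + offset) minus each gene's WT mean, for Cdkn1a (black) and the 5 nearest genes over the 6 arrays, CNOT3KO mice left and WT mice right; lines join the points of 1 gene within a group only to guide the eye. All 6 genes lie more than 3 log2 units above their WT mean in each CNOT3KO mouse, and Adam8 and Timp1 stay nearest to Cdkn1a.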

How the data were processed

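RNA of epididymal white fat was measured on 6 Affymetrix arrays. The deposited signal intensity per probe set is the authors' own; per the submitters' processing notes the tool was MAS5, with version and settings not given in the sources used here, and detection calls were not used here. The trimmed mean signal (2% off each end) differed by at most 0.07% between arrays. A gene stood for its brightest probe set of 1 gene name over the 6 arrays (34945 of 45037 probe sets name 1 gene, 932 several and 9160 are unnamed here). Genes whose mean lay under the 40th percentile of probe sets (51.6) were not tested, which set aside 5424 of 18193.

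Log2(signal + 22.5) was fitted in limma 3.58.1 under R 4.3.3 (lmFit, then eBayes with trend, two-sided); 22.5 is the signals' 25th percentile. A gene was called where the Benjamini-Hochberg adjusted p over all tested genes was under 0.05. Standard errors and calls of single probe sets came from the same fit over all 22861 named probe sets above the filter. Folds are on the log2(signal + offset) scale and understate changes of dim genes. The fit was tested on simulated data. Titles name separate mice, and 3 per group limit the precision.

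The members and the gene lists were chosen with earlier results of these data known. Named in each list were the 4 tested genes with the largest differences, with Cnot3 and the 5 genes nearest Cdkn1a; Mdm4, Glb1, Lmnb1, Il6, Il1a, Bbc3, Phlda3, Zmat3, Tigar, Cdk2, Cdk4, the genes whose windows hold a motif pair, and others that make up small counts were chosen after their values were seen. Of 257 list entries, 16 had no probe set of that gene alone and were not analysed here. Promoter sequences are RefSeq's, build GRCm38.p6. Tables were read and plotted with matplotlib 3.10.9, pandas 2.3.3 and numpy 2.4.6 in Python 3.11.15. Alternatives covered the offset, the filter, normalization and centring, the choice of probe set, the prior, the mouse number as a block, array weights, and each mouse left out. A call is said to hold under every alternative where it was made in each one that tested the gene.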

Additional observations from a re-analysis of the deposited data

How the results depend on the processing

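The 20 alternatives reversed 0 of the called differences of members and named genes. The signs of Mdm2, Cdkn2b and Cdkn2c varied, and at the gene level these were never called. Mdm2 probe set 1427718_a_at, tested singly, was called higher. Members called higher were 1 in place of 2 under centring on ribosomal genes or on the median, 1 to 2 with 1 mouse left out, and 3 with no filter (Cdkn2a added) or with array weights (Cdkn2d added). Members called lower were 0 in place of 1 when each gene's probe sets were averaged, and 0 to 1 with 1 mouse left out. With that averaging, the regulators of p53 called higher were 0 in place of 3, the cyclins and CDKs called lower 0 in place of 1, and the ATF4 and sestrin genes called lower 5 in place of 8. With 1 mouse left out, these last were 5 to 8 and the cyclins and CDKs called lower 0 to 2. CDK inhibitors and pocket proteins called higher were 0 in place of 1 with the filter at the 60th percentile, and 1 to 2 with 1 mouse left out. Array weights gave 1 lower E2F and proliferation gene in place of 0 and 5 lower p53 targets in place of 3. The causes were not tested. All-gene calls stayed within 1.5 times. With the mouse number as a replicate block, 2910 genes were called higher and 2182 lower. Deviations of same-numbered mice correlated by 0.07, 0.11 and 0.04, and those of differently numbered mice by -0.08 to 0.02. The labels do not say whether a shared number marks a shared litter or day, and this was not tested. MAS5 signals near the filter limit what can be said of dim genes.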
